A study of Mus musculus with 22 samples.

Results

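The NF-κB module analysed here holds the Rel family subunits, the IκB inhibitors, the kinases and adaptors that lead to them and the proteins that restrain them. The list has 50 names for 49 genes, since Pellino1 is Peli1. Each gene was represented by 1 probe set that names it alone, the one with the highest mean over all 22 arrays. This gave 42 measured members among 18193 genes with such a probe set. Nfkb1, Chuk, Irak4, Traf3, Ripk1, Ripk2 and Tnip3 had no probe set naming them alone in the annotation used and were not analysed here.

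The cells were CD11c+CD8α- DCs (CD8α- DCs), sorted by flow cytometry from CD45-enriched pancreas cells of female mice aged 5 weeks, with 10 pancreases pooled per array. NOD mice develop autoimmune diabetes spontaneously, and C57BL/6 mice served as the control strain. RNA was taken directly after sorting (steady state, 4 C57BL/6 and 3 NOD arrays), or after 18 h of culture with PBS (4 and 4 arrays) or with LPS (3 and 4 arrays). LPS is the bacterial cell wall product that activates TLR4. Cultured and steady state cells differ in handling as well as in culture, so these cannot be told apart. The series describes the culture as another experiment, while the methods state that some of the sorted cells were lysed and the others cultured, so it is not settled whether steady state and cultured arrays share pools. With bulk RNA from sorted pools, fewer cells of a type and less RNA per cell cannot be told apart either.

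In resting cells the Rel dimers are held in the cytoplasm by IκB proteins. Receptors such as TLR4 signal through adaptors, IRAK kinases and TRAF ubiquitin ligases to the IKK complex, which marks IκB for destruction and frees the dimers to enter the nucleus. Several of the genes that are then transcribed, such as Nfkbia, Tnfaip3 and Tnip1, encode brakes on the same pathway, and in DCs the pathway accompanies maturation and cytokine production.

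All values are RMA log2 expression, and differences are log2 differences with the moderated SE of limma. Higher or lower is used of a member whose limma p, after Benjamini-Hochberg correction over the 45037 probe sets tested, was under 0.1. Array medians lay between 7.633 and 7.684, and no group mean of a member lay below the lower quartile of its arrays. Of the 13 markers listed for these DCs, 12 were measured and none had a group mean under that quartile. Their mean level was 11.7 to 11.9 on the steady state arrays and 10.7 to 11.2 on the cultured ones. Their summed level on the log2 scale, the measure given for the lists below, was 16.4 to 16.6 and 15.6 to 16.4. The arrays also carried signal of other cells. The summed level of the acinar markers (5 of 8 measured) was 15.2 to 16.1 on the log2 scale at steady state and 11.0 to 15.04 in culture, and all 5 were lower in PBS culture in both strains. The summed level of the 13 macrophage markers was 17.0 to 17.1 at steady state, above that of the DC markers, and 15.9 to 16.4 in culture. The summed level of the NK cell and innate lymphoid markers (9 of 10 measured) was 13.03 to 13.2 in C57BL/6 and 12.3 to 12.5 in NOD at steady state, with 7 of 9 lower in NOD. In PBS culture 5 of 9 were lower in NOD, and 5 of 9 in LPS culture. Of the T cell markers 3 of 6 were higher in NOD at steady state.

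Because several members are known targets of the factor they regulate, the promoter windows of the module were searched for a κB-like motif. The motif was GGGNNNTTCC on either strand, so that on the other strand it reads GGAANNNCCC, in RefSeq windows of 250 bases before to 50 bases after each start site (GRCm38.p6). Of the 42 measured members, 36 had a window and 13 of these, 36.1%, held the motif. Among the 14452 array genes with a window the share was 6.83%. The 13 were Nfkb2, Rel, Nfkbia, Nfkbie, Nfkbid, Tank, Map3k7, Tirap, Traf2, Traf5, Tnfaip3, Tnip1 and Cyld. The stretch around 1 match is shown for 6 of them, because they encode the factor (Nfkb2, Rel), its classical inhibitors (Nfkbia, Nfkbie) and the A20 brake with its partner (Tnfaip3, Tnip1). The sequences are written 5′ to 3′ on the strand of the gene, with the match in capitals.
Nfkbia (chr12:55492648-55492696, minus strand): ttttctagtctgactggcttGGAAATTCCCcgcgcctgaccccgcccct
Nfkbie (chr17:45555574-45555623, plus strand): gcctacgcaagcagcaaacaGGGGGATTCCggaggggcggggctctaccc
Nfkb2 (chr19:46304679-46304728, plus strand): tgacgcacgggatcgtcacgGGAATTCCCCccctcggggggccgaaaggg
Rel (chr11:23771031-23771080, minus strand): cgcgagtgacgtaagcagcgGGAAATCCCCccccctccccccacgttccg
Tnfaip3 (chr10:19015411-19015442, minus strand): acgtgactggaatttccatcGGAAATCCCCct
Tnip1 (chr11:54962969-54963018, minus strand): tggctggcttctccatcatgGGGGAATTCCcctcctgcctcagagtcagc
The first base of the match lay 29 bases before the start site in Nfkbia, 12 in Tnfaip3, 38 in Nfkb2, 58 in Tnip1, 91 in Rel and 106 in Nfkbie. In Tnip1 a match on the other strand overlaps the one shown, and windows of Nfkb2 and Tnfaip3 held further matches. A match of these letters is a description and not a binding site, and the start sites used by the DCs were not measured.

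Culture without LPS went with the largest differences of the module. In C57BL/6, 30 of the 42 members (71.4%) were higher after 18 h with PBS than at steady state and 8 (19.0%) were lower, against 44.6% higher and 32.3% lower of all 18193 genes. In NOD, 30 members were higher and 4 (9.52%) lower, against 41.6% and 30%. The median member differed by 1.03 in C57BL/6 and by 1.23 in NOD, while the median gene differed by 0.17 and 0.16. In C57BL/6 23 members, and in NOD 25, were called with a difference of at least 2-fold. In all, 29 members were higher in both strains, 4 were lower in both, and none moved in opposite directions. The macrophage markers moved too (9 of 13 lower in C57BL/6, 8 of 13 in NOD, and 2 higher in each). So did those of the DCs themselves, with 7 of 12 lower and 4 higher in C57BL/6 and 7 lower and 1 higher in NOD. Of 7 measured markers of CD8α+ or CD103+ DCs, 5 were lower and 2 higher in each strain. The part of these and other cells in the culture differences was not tested.

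The genes of all 4 measured Rel subunits were higher in culture in both strains. Nfkb2, the precursor of p52, was at 10.01, 9.72, 9.66 and 9.69 on the C57BL/6 steady state arrays and at 11.42, 11.50, 11.33 and 11.34 with PBS. In NOD it was at 9.58, 9.45 and 9.55 at steady state and at 11.43, 11.56, 11.73 and 11.56 with PBS. The cultured arrays lay above the steady state arrays in both strains, with differences of 1.63 (SE 0.11, adjusted p = 1.35e-07) in C57BL/6 and 2.04 (SE 0.12, adjusted p = 6.08e-08) in NOD. Relb, the partner of p52, was higher by 1.63 and 1.95, and Rel (c-Rel) by 1.88 and 1.97. Rela, the p65 subunit of the classical dimer, was higher by 0.94 and 1.11.

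The genes of the 3 classical IκB inhibitors rose with them. Nfkbib (IκBβ) had the largest difference of any member in C57BL/6. It was at 9.59, 9.55, 9.53 and 9.47 at steady state and at 12.18, 12.24, 12.19 and 12.10 with PBS, a 6.24-fold difference (log2 2.64, SE 0.09, adjusted p = 7.58e-10). In NOD its arrays went from 9.60, 9.86 and 9.63 to 12.05, 12.14, 12.27 and 12.20 (log2 2.47, SE 0.12). Nfkbie (IκBε) was higher by 1.49 in C57BL/6 and 1.86 in NOD. Nfkbia (IκBα), the fast inducible inhibitor, was higher by 0.65 and 1.23.

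Among the kinases the change ran in both directions. Ikbkg (NEMO), the ubiquitin-binding subunit of the IKK complex, was at 9.05, 8.99, 8.91 and 8.98 in C57BL/6 at steady state and at 11.76, 11.44, 11.57 and 11.50 with PBS (log2 2.59, SE 0.10, adjusted p = 2.25e-09). Its NOD arrays went from 8.99, 8.61 and 8.83 to 11.86, 11.35, 11.55 and 11.63 (log2 2.79, SE 0.15). No cultured array overlapped a steady state array. The IKK-related kinases Tbk1 and Ikbke and their scaffold Tank were higher in both strains, by 1.10 and 1.36, by 1.09 and 1.23, and by 1.44 and 1.81. Ikbkb (IKKβ), the catalytic subunit, was lower on the probe set used, with differences of −0.50 in C57BL/6 and −0.61 in NOD. Of the other 4 probe sets of Ikbkb, 3 did not pass in C57BL/6 and 1 was higher (log2 0.53, adjusted p = 0.00429). Map3k8 (Tpl2), a kinase kept inactive by p105, was at 10.10, 9.91, 9.80 and 10.52 in C57BL/6 at steady state and at 9.11, 8.82, 9.08 and 9.11 with PBS (log2 −1.05, SE 0.15, adjusted p = 8.95e-05). In NOD the difference was −0.42 (adjusted p = 0.0927), and it no longer passed without 5 of the 7 arrays in turn, with an adjusted p up to 0.349 without NOD steady state replicate 1. Map3k7 (TAK1) was lower in C57BL/6 (log2 −0.32) and did not pass in NOD (log2 −0.12, adjusted p = 0.417). Map3k14 (NIK), the kinase of the alternative pathway, was higher by 0.53 in C57BL/6 (adjusted p = 0.0271), with a difference of −0.03 in NOD (adjusted p = 0.899). The other probe set of Map3k14 was higher in both strains (log2 0.67 and 0.42).

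Genes of TRAF and IRAK proteins and their partners were mostly higher in culture. Traf1, itself an NF-κB target, was at 10.77, 10.73, 10.79 and 10.88 in C57BL/6 at steady state and at 13.09, 13.26, 13.27 and 13.21 with PBS (log2 2.41, SE 0.10). Its NOD arrays went from 10.77, 10.38 and 10.63 to 13.51, 13.43, 13.67 and 13.34 (log2 2.9, SE 0.14), again without overlap. Traf2, an E3 ligase adaptor of TNF receptors, was higher by 1.98 in C57BL/6 and 1.90 in NOD. Traf6, the ligase of the TLR arm, was higher by 0.74 and 0.67, and Peli1, which modifies IRAK and RIP proteins, by 1.49 and 1.94. The cIAP ligases Birc2 and Birc3 were higher by 0.74 and 0.74 and by 0.94 and 1.10. Irak2, the kinase that sustains TLR signalling, was higher by 1.26 in C57BL/6 and 2.03 in NOD, and Irak3 (IRAK-M), its inhibitory relative, by 1.75 and 1.61. Irak1 was lower in both strains, with differences of −0.48 and −0.36. Ticam1 (TRIF), the adaptor of the MyD88-independent arm, was higher by 0.97 and 0.87.

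Sqstm1 (p62), a ubiquitin-binding scaffold, was at 11.13, 11.22, 11.25 and 11.08 in C57BL/6 at steady state and at 13.55, 13.42, 13.71 and 13.34 with PBS (log2 2.33, SE 0.11, adjusted p = 7.38e-09). In NOD it was higher by 2.42 (SE 0.12). Tnip1 (ABIN1), which brings A20 to ubiquitin chains, was higher by 1.56 and 2.11. Otud7b (Cezanne), a deubiquitinase, was higher by 0.54 and 0.69, although 1 of the 4 Otud7b probe sets was lower in NOD (log2 −0.31, adjusted p = 0.0599). Zc3h12a (Regnase-1), an RNase that removes cytokine mRNAs, was higher by 1.22 and 2.01, and Malt1, the protease that can cleave both A20 and Regnase-1, by 2.08 and 2.94. Bcl10, the partner of Malt1, was lower in both strains on the probe set used (log2 −0.70 and −0.40), with overlap of its arrays in NOD. Among the other probe sets of Bcl10, 1 did not pass in C57BL/6 and 2 did not in NOD, and the rest were also lower. The members that passed in neither strain were Cyld, Tab2 and Traf5, with differences between −0.17 and 0.14. Of the 38 calls in C57BL/6, 36 held with each array left out in turn, and in NOD 31 of 34 did. Nfkbid and Zfp36 in C57BL/6, and Map3k8, Tirap and Bcl10 in NOD, were the calls that did not. The largest adjusted p values were 0.201 for Nfkbid without C57BL/6 steady state replicate 1, 0.167 for Zfp36 without C57BL/6 steady state replicate 4, 0.145 for Tirap without NOD steady state replicate 4 and 0.184 for Bcl10 without NOD steady state replicate 1.

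**Figure D1:**
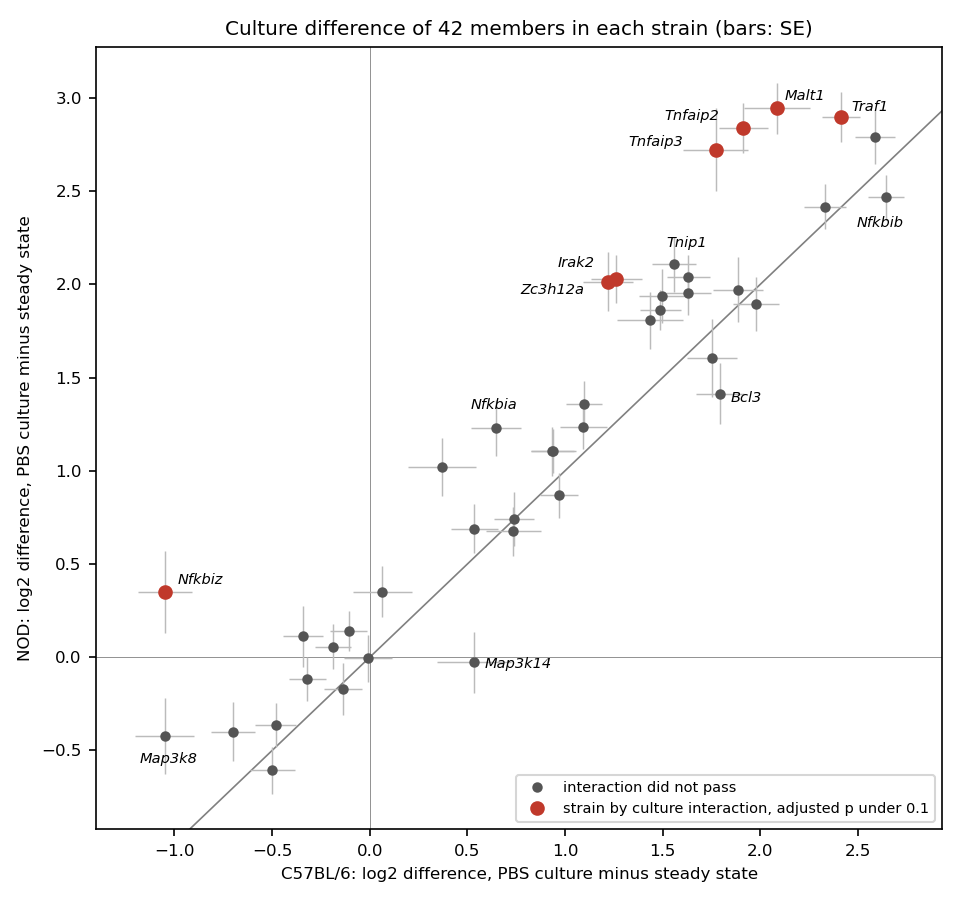
Log2 difference between PBS culture and steady state of the 42 members in C57BL/6 (horizontal axis) and in NOD (vertical axis), with the SE of each as bars and the line of equal difference in grey. Members whose difference, taken with its sign, was larger in NOD by the interaction test are in red. All 7 of them, Nfkbiz among them at −1.05 in C57BL/6 and 0.35 in NOD, lie above the line.

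At steady state all 3 genes of atypical IκB proteins differed between the strains, with Nfkbiz and Nfkbid lower and Bcl3 higher in NOD. The A20 gene Tnfaip3 was lower too. Of the 42 members, 7 (16.7%) were lower in NOD and 3 (7.14%) were higher, against 8.35% lower and 6.87% higher of all genes. The median member differed by −0.14, the median gene by 0.03. The lower members were Nfkbiz, Tnfaip3, Nfkbid, Tnfaip2, Tank, Relb and Peli1, and the higher ones were Bcl3, Malt1 and Tirap. The lower NK cell and innate lymphoid markers in NOD (7 of 9) and the higher T cell markers (3 of 6) stand beside these differences, as do lower monocyte markers (3 of 6) and lower markers of the DCs themselves (4 of 12), and their part in them was not tested.

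Nfkbiz (IκBζ), a nuclear IκB protein that activates a secondary set of NF-κB genes, had the largest strain difference. It was at 12.23, 12.45, 12.47 and 12.83 in C57BL/6 and at 11.51, 11.11 and 12.18 in NOD, so that all NOD arrays lay below all C57BL/6 arrays. The difference was −0.90 (SE 0.22, adjusted p = 0.0274), a level 1.86-fold lower in NOD. Tnfaip3 (A20), the ubiquitin-editing brake whose loss causes inflammation, was at 10.71, 10.96, 10.66 and 11.53 in C57BL/6 and at 9.99, 9.63 and 10.82 in NOD. The groups overlapped on 1 NOD array, and the difference was −0.82 (SE 0.27, adjusted p = 0.0909). Both genes were highest on replicate 6 of their strain. Within the replicate numbers 1, 4 and 6, which went together across the strains, Nfkbiz differed by −0.72, −1.35 and −0.65, and Tnfaip3 by −0.72, −1.33 and −0.71. Nfkbid (IκBNS), the third nuclear IκB protein of the module beside Nfkbiz and Bcl3, was at 8.94, 9.10, 8.99 and 9.76 in C57BL/6 and at 8.51, 8.54 and 8.89 in NOD (log2 −0.55, SE 0.19, adjusted p = 0.0984). Its NOD arrays lay below the C57BL/6 arrays.

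Tnfaip2, a gene induced by TNF whose product has roles outside the pathway, was at 11.34, 11.08, 11.06 and 11.53 in C57BL/6 and at 10.86, 10.41 and 10.83 in NOD (log2 −0.55, SE 0.15, adjusted p = 0.0415). Relb, Tank and Peli1 were lower in NOD by differences of −0.39, −0.45 and −0.37. Bcl3, the nuclear IκB protein that binds p50 and p52, was higher at 10.35, 10.70 and 10.03 in NOD against 10.11, 9.65, 9.89 and 9.87 in C57BL/6, with overlap (log2 0.48, SE 0.16, adjusted p = 0.0902). The groups of Tirap, the adaptor that brings MyD88 to TLR4, did not overlap, with 9.57, 9.20 and 9.34 in NOD and 9.0, 8.79, 8.88 and 9.09 in C57BL/6 (log2 0.43, SE 0.12, adjusted p = 0.0425). Malt1 was at 9.50, 9.69 and 9.97 in NOD and at 9.06, 9.49, 9.42 and 9.01 in C57BL/6 (log2 0.47, SE 0.15, adjusted p = 0.0805). Other probe sets of Malt1 did not pass at steady state and 1 of them had a difference of −0.40 (adjusted p = 0.128). None of the other 2 probe sets of Nfkbiz (log2 −0.46 and −0.35), the other 4 of Peli1, and the other 1 of Tank and of Tnfaip3 passed, and 1 of the other 2 of Tnfaip2 did.

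Of these calls that of Nfkbiz held with each of the 7 arrays left out in turn, and the other 9 were lost without 2 (Peli1, Tnfaip2) to 6 (Nfkbid) of them. Without NOD steady state replicate 4, 8 of the 10 calls were lost, with an adjusted p of 0.31 for Tnfaip3, and without NOD steady state replicate 6 Malt1 was at 0.268. With the replicate number as a block all 10 calls remained and 4 were added, with Nfkbia (adjusted p = 0.0189), Map3k8 (adjusted p = 0.0146) and Irak2 (adjusted p = 0.0286) lower and Irak3 (adjusted p = 0.0728) higher in NOD.

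In culture most of the members that passed between the strains were higher in NOD. With PBS, 8 members (19.0%) were higher in NOD and 1 (2.38%) lower, against 5.43% higher and 5.28% lower of all genes. With LPS, 9 members (21.4%) were higher and 2 (4.76%) lower, against 5.21% and 5.43%. The median member differed by 0.10 with PBS and 0.15 with LPS, the median gene by 0.04 and 0.01. In both cultures 8 members, Malt1, Tirap, Tbk1, Nfkbiz, Tnip1, Zc3h12a, Irak2 and Tnfaip2, were higher in NOD, and Map3k14 was lower. The NK cell and innate lymphoid markers were lower in NOD here too (5 of 9). Of the 12 measured DC markers, 4 were lower and 2 higher in NOD with PBS, and 5 lower and none higher with LPS. Of 7 B cell markers 3 were lower with PBS and 2 with LPS, and none was higher. Of 13 macrophage markers 3 were lower and 2 higher in each culture. Of 7 neutrophil markers 2 were lower with PBS, and 3 were lower and 1 higher with LPS. The part of these cells was not tested. On the probe sets used, Malt1 and Tirap were higher in NOD in all 3 settings, and no member was lower in all 3. At steady state both calls were lost without 4 of the 7 arrays in turn, and the other 2 probe sets of Malt1 did not pass. Nfkbiz and Tnfaip2 were the 2 members that were lower in NOD at steady state and higher in both cultures.

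Malt1 differed most. With PBS it was at 12.52, 12.75, 12.76 and 12.62 in NOD and at 11.04, 11.78, 11.21 and 11.29 in C57BL/6, a 2.52-fold difference (log2 1.33, SE 0.16, adjusted p = 0.000339). With LPS it was at 13.07, 13.48, 13.20 and 13.38 in NOD and at 12.50, 12.19 and 12.48 in C57BL/6 (log2 0.89, SE 0.14, adjusted p = 0.00423). The strains did not overlap in either culture, and the other 2 probe sets of Malt1 were higher in NOD in both. Map3k14 (NIK), whose accumulation starts the processing of p100 to p52, was the member with the largest difference in the other direction. With PBS it was at 9.40, 9.50, 9.73 and 9.69 in NOD and at 9.92, 10.42, 11.02 and 10.29 in C57BL/6 (log2 −0.83, SE 0.20, adjusted p = 0.0282). With LPS it was at 9.38, 9.90, 9.53 and 9.94 in NOD and at 10.63, 10.68 and 10.45 in C57BL/6, 1.87-fold lower in NOD (log2 −0.90, SE 0.16, adjusted p = 0.00781). No NOD array reached a C57BL/6 array in either culture. The second, dimmer probe set of Map3k14 did not pass, with differences of −0.16 and −0.32.

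Tirap was at 9.52, 9.67, 9.83 and 9.87 in NOD and at 8.75, 8.71, 9.21 and 9.33 in C57BL/6 with PBS (log2 0.72, SE 0.16, adjusted p = 0.0196). With LPS it was at 9.73, 9.56, 10.01 and 10.00 in NOD and at 8.88, 9.35 and 9.34 in C57BL/6 (log2 0.64, SE 0.16, adjusted p = 0.0472). Again the strains did not overlap. Tbk1, the kinase of the TRIF arm, was at 12.97, 12.77, 12.76 and 12.75 in NOD and at 12.33, 12.25, 12.26 and 12.40 in C57BL/6 with PBS (log2 0.50, SE 0.11, adjusted p = 0.0142). It was higher by 0.57 with LPS (SE 0.12, adjusted p = 0.0169). Irak2 was higher in NOD by 0.44 with PBS and 0.47 with LPS. Map3k8 passed with LPS alone (log2 0.53, adjusted p = 0.0345), where it was at 9.87, 9.68, 9.78 and 9.56 in NOD and at 9.01, 9.24 and 9.32 in C57BL/6, without overlap. With PBS its difference was 0.16 (adjusted p = 0.613).

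Of the 6 measured deubiquitinases and ubiquitin-binding brakes Tnip1 alone, and of the 2 mRNA decay brakes Zc3h12a alone, passed between the strains in each culture. With PBS, Nfkbiz was at 11.82, 12.10, 12.16 and 11.70 in NOD and at 11.52, 11.59, 11.23 and 11.44 in C57BL/6 (log2 0.50, SE 0.14, adjusted p = 0.0517). With LPS it was at 12.84, 12.93, 12.81 and 12.86 in NOD and at 12.55, 12.44 and 12.50 in C57BL/6 (log2 0.36, SE 0.11, adjusted p = 0.0744). Its arrays did not overlap between the strains in either culture. The other 2 probe sets of Nfkbiz were higher in NOD with PBS, but neither passed with LPS. Tnip1 was at 12.62, 12.53, 13.02 and 12.48 in NOD and at 12.10, 12.31, 12.11 and 12.13 in C57BL/6 with PBS (log2 0.50, SE 0.14, adjusted p = 0.0496), and was higher by 0.51 with LPS (adjusted p = 0.0398). Zc3h12a was higher by 0.49 with PBS (adjusted p = 0.0903) and by 0.52 with LPS (adjusted p = 0.025). With LPS its arrays were at 10.95, 10.70, 10.94 and 10.72 in NOD and at 10.33, 10.31 and 10.27 in C57BL/6. The other probe set of Zc3h12a was higher in NOD with LPS and did not pass with PBS. Tnfaip2 was higher by 0.37 and 0.35, and 1 of its other 2 probe sets did not pass with LPS. Tnfaip3, lower in NOD at steady state, did not pass in culture, with a difference of 0.13 in both media and 95% intervals of −0.09 to 0.35 with PBS and −0.11 to 0.36 with LPS. Birc2 was lower in NOD with LPS (log2 −0.46, adjusted p = 0.0979).

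Of the calls with PBS, those of Malt1, Map3k14, Tirap and Tbk1 held with each array left out in turn, and 4 of 9 remained without C57BL/6 PBS replicate 3 and without NOD PBS replicate 3. With LPS, those of Malt1, Map3k14, Tbk1 and Zc3h12a held, and 4 of 11 remained without C57BL/6 LPS replicate 2. The LPS culture calls of Nfkbiz, Birc2 and Tnfaip2 were lost without any 1 of the 7 arrays, with an adjusted p up to 0.22, 0.253 and 0.251, each without C57BL/6 LPS replicate 3. In the replicate block fit Birc2 (adjusted p = 0.116) and Tnfaip2 (adjusted p = 0.144) did not pass with LPS, while with PBS Nfkbie (adjusted p = 0.0939) and Tnip2 (adjusted p = 0.0887) were added as higher in NOD.

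**Figure D2:**
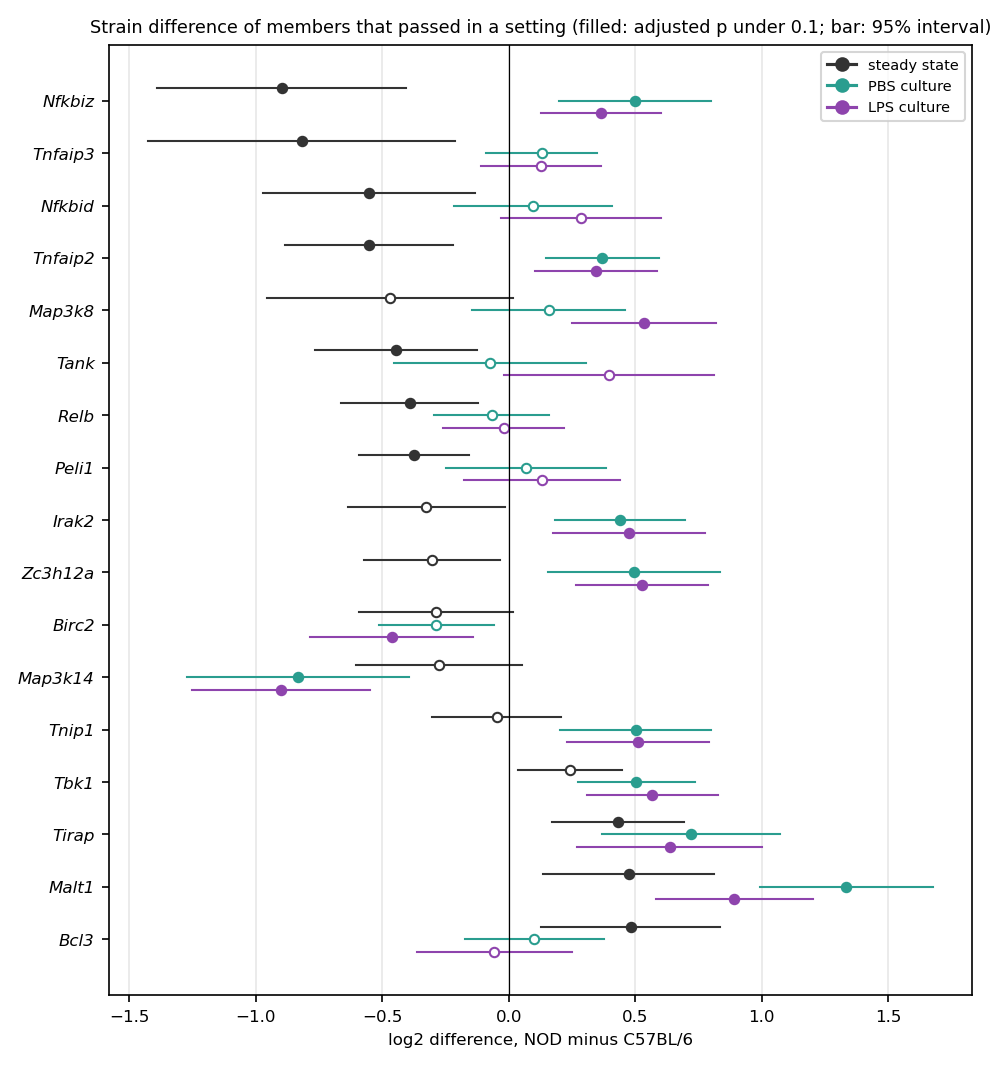
Log2 difference between NOD and C57BL/6 (horizontal axis) of the 17 members that passed in at least 1 setting, at steady state, in PBS culture and in LPS culture. Points are differences, bars 95% intervals, and filled points have an adjusted p under 0.1. Nfkbiz lies at −0.90 at steady state and at 0.50 and 0.36 in culture, while Malt1 and Tirap lie above 0 in all 3.

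Whether the culture difference was equal in the strains was tested as an interaction of strain and culture. The test used the 15 arrays of steady state and PBS culture. Here and below, larger and smaller are used of the difference with its sign, so a smaller fall in NOD also counts as larger. In 7 of the 42 members (16.7%) the difference between PBS culture and steady state was larger in NOD than in C57BL/6, and in no member was it smaller, against 4.91% and 2.89% of all genes. At an unadjusted p under 0.05 there were 15 members. The median interaction was 0.25 over the members and 0.01 over the genes. Because this test uses the same steady state and PBS arrays as the strain comparisons, it is not separate evidence from them.

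Nfkbiz had the largest interaction, 1.40 (SE 0.27, adjusted p = 0.00535). Its difference in culture was −1.05 in C57BL/6 (SE 0.14, adjusted p = 3.62e-05) and 0.35 in NOD (SE 0.22, adjusted p = 0.188). The C57BL/6 arrays with PBS all lay below those at steady state, while in NOD the arrays overlapped. The other 2 probe sets of Nfkbiz also had positive interactions (0.99 and 0.91), and both were lower in culture in C57BL/6. Their own differences in NOD were −0.02 and −1.08, so on these probe sets the interaction was a smaller fall in NOD. The direction in NOD depends on the probe set. Tnfaip3 was higher in culture by 1.77 in C57BL/6 and by 2.72 in NOD (interaction 0.95, SE 0.30, adjusted p = 0.092). Its arrays with PBS were at 12.75, 12.79, 12.69 and 12.72 in C57BL/6 and at 12.82, 12.89, 12.97 and 12.80 in NOD, a narrow range beside the spread at steady state. The interaction did not pass on the other probe set of Tnfaip3. Tnfaip2 was higher by 1.91 and 2.84 (interaction 0.92, SE 0.18, adjusted p = 0.00526). Its arrays with PBS were at 13.15, 13.16, 13.07 and 13.29 in C57BL/6 and at 13.56, 13.50, 13.60 and 13.49 in NOD, without overlap. The interaction also passed on 1 other probe set of Tnfaip2 and did not pass on 1.

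Malt1 had an interaction of 0.86 (SE 0.23, adjusted p = 0.0405), and its other 2 probe sets had interactions of 1.51 and 1.54 and also passed. Zc3h12a had an interaction of 0.80 (SE 0.21, adjusted p = 0.0348). It was at 7.91, 7.94, 7.88 and 8.30 in C57BL/6 and at 7.80, 7.73 and 7.59 in NOD at steady state, and at 9.34, 9.32, 9.26 and 8.98 and at 9.44, 9.92, 10.02 and 9.50 with PBS. All NOD arrays of Zc3h12a lay below those of C57BL/6 at steady state, where the strain difference did not pass, and above them with PBS. Its other probe set gave −0.09 and did not pass. Irak2 had an interaction of 0.77 (SE 0.18, adjusted p = 0.0229), with 9.26, 9.54, 9.11 and 9.69 in C57BL/6 and 8.99, 9.04 and 9.18 in NOD at steady state and 10.74, 10.64, 10.58 and 10.70 and 10.92, 11.02, 11.33 and 11.15 with PBS. Traf1 had the smallest of the 7, 0.48 (SE 0.15, adjusted p = 0.0947), and its other probe set did not pass.

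The interactions of Nfkbiz, Irak2 and Tnfaip2 held with each of the 15 arrays left out in turn, and 4 of the 7 held without NOD steady state replicate 4, where the adjusted p was 0.283 for Tnfaip3 and 0.275 for Traf1. Malt1 was at an adjusted p of 0.1 without NOD steady state replicate 1 or 4, and Zc3h12a at 0.105 without NOD steady state replicate 6. With the replicate number within a strain as a block, Nfkbiz and Malt1 kept their calls, and Tnfaip3 (adjusted p = 0.104), Tnfaip2 (adjusted p = 0.221), Irak2 (adjusted p = 0.304), Traf1 (adjusted p = 0.548) and Zc3h12a (adjusted p = 0.557) did not. With the number as a block shared by the strains within each condition, an alternative chosen after seeing the data, all 7 calls remained and Nfkbia (adjusted p = 0.0194), Nfkbid (adjusted p = 0.0196), Map3k8 (adjusted p = 0.0538) and Tnip1 (adjusted p = 0.0748) were added.

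**Figure D3:**
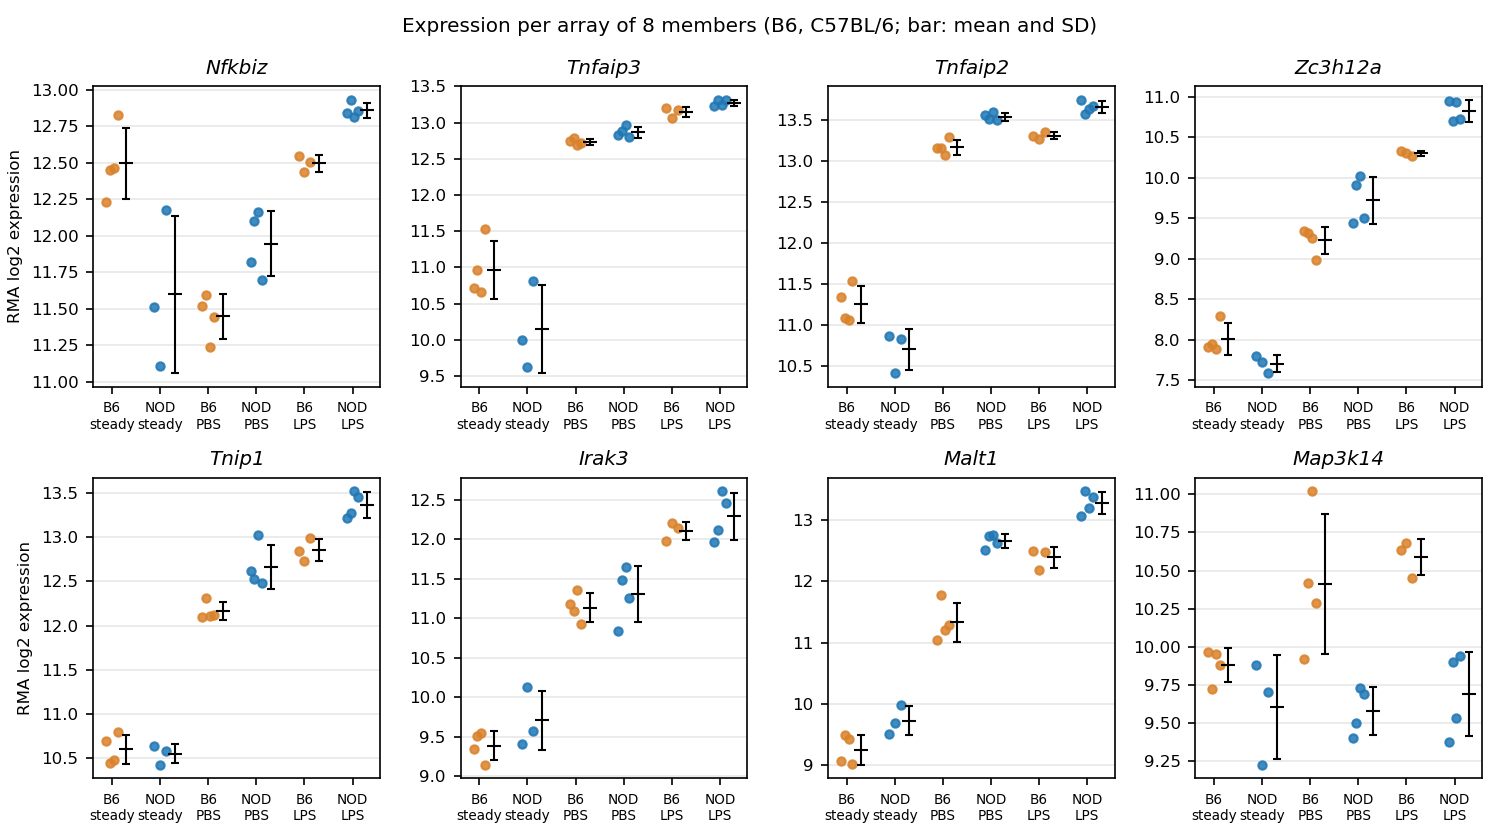
RMA log2 expression (vertical axes, each with its own range) of Nfkbiz, Tnfaip3, Tnfaip2, Zc3h12a, Tnip1, Irak3, Malt1 and Map3k14 on each array of the 6 groups (horizontal axes). Points are arrays, with C57BL/6 in orange and NOD in blue, and black bars are the mean and SD. Of those shown, Nfkbiz is the one whose C57BL/6 level is lower with PBS than at steady state, and it lies at 12.44 to 12.55 with LPS.

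With LPS a small group of members was higher than with PBS, among them the inhibitory Zc3h12a, Irak3 and Tnip1. Against PBS, 5 members (11.9%) were higher and none was lower in C57BL/6, where 0.945% of all genes were higher and 0.868% lower. In NOD 11 members (26.2%) were higher and none was lower, where 1.93% of genes were higher and 2.46% lower. The 5 of C57BL/6, Zc3h12a, Malt1, Nfkbiz, Irak3 and Tnip1, were all among the 11 of NOD. The median member differed by 0.13 in both strains and the median gene by 0.02 in C57BL/6 and −0.004 in NOD. At an unadjusted p under 0.05 there were 11 members in C57BL/6 and 15 in NOD. Of the 13 macrophage markers 3 were lower with LPS in C57BL/6, and in NOD 6 were lower and 1 was higher, and their part was not tested.

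Zc3h12a had the largest LPS difference in both strains. It was at 9.34, 9.32, 9.26 and 8.98 with PBS and at 10.33, 10.31 and 10.27 with LPS in C57BL/6, a 2.11-fold difference (log2 1.08, SE 0.13, adjusted p = 0.018). In NOD it went from 9.44, 9.92, 10.02 and 9.50 to 10.95, 10.70, 10.94 and 10.72, a 2.16-fold difference (log2 1.11, SE 0.15, adjusted p = 0.00346). The groups did not overlap in either strain. Nfkbiz was at 11.52, 11.59, 11.23 and 11.44 with PBS and at 12.55, 12.44 and 12.50 with LPS in C57BL/6 (log2 1.05, SE 0.13, adjusted p = 0.0183), and higher by 0.91 in NOD (SE 0.12, adjusted p = 0.00346). One of its other 2 probe sets did not pass in either strain. The other probe set of Zc3h12a passed in NOD (log2 0.86) and not in C57BL/6 (log2 0.54, adjusted p = 0.123). Irak3 (IRAK-M), which holds back IRAK signalling, was at 11.17, 11.09, 11.36 and 10.92 with PBS and at 11.98, 12.20 and 12.14 with LPS in C57BL/6 (log2 0.97, SE 0.14, adjusted p = 0.0252). In NOD it was at 10.84, 11.48, 11.65 and 11.26 and at 11.97, 12.12, 12.61 and 12.46 (log2 0.98, SE 0.19, adjusted p = 0.0217). No array with PBS reached one with LPS.

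Tnip1 was at 12.10, 12.31, 12.11 and 12.13 with PBS and at 12.85, 12.73 and 12.99 with LPS in C57BL/6 (log2 0.69, SE 0.12, adjusted p = 0.0457). In NOD it was higher by 0.70 (SE 0.14, adjusted p = 0.0228), with 13.22, 13.27, 13.52 and 13.45 on the LPS arrays. Malt1 was higher by 1.06 in C57BL/6 (SE 0.18, adjusted p = 0.0442) and by 0.62 in NOD (SE 0.12, adjusted p = 0.0205), and 1 of its other 2 probe sets did not pass in C57BL/6 (log2 0.92, adjusted p = 0.224). Tnip1 and Malt1, like the 3 members above, had LPS arrays that lay above all PBS arrays of their strain.

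In NOD a further 6 members passed, and for Nfkb2 and Nfkbib among them the other probe set did not. Ikbke (IKKε), an inducible kinase of the interferon arm, was at 9.76, 9.99, 9.94 and 9.87 with PBS and at 10.40, 10.43, 10.62 and 10.70 with LPS (log2 0.65, SE 0.11, adjusted p = 0.0114). Nfkbid was higher by 0.57, Map3k8 by 0.53, Nfkb2 by 0.48, Nfkbib by 0.43 and Tnfaip3 by 0.41. In C57BL/6 the same members had differences of 0.52 for Ikbke, 0.38 for Nfkbid, 0.16 for Map3k8, 0.45 for Nfkb2, 0.29 for Nfkbib and 0.41 for Tnfaip3, with adjusted p from 0.129 to 0.762. That these passed in NOD alone is not a difference between the strains. The interaction of strain and LPS passed in none of the 42 members by limma, and at an unadjusted p under 0.05 the count was also 0. Of all genes 0.0165% were called with a larger and 0.0055% with a smaller LPS difference in NOD. The intervals leave room for unequal responses, with a median 95% half-width of 0.35 over the members. The largest estimates were 0.47 for Tank (95% interval −0.10 to 1.04), 0.38 for Map3k8 (−0.02 to 0.77) and −0.44 for Malt1 (−0.90 to 0.02).

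Of the 4 measured Rel subunits Nfkb2 alone passed with LPS, in NOD only. Of the 9 measured members listed as IKK complex and upstream kinases, Ikbke and Map3k8 alone did, also in NOD only. That list holds Tank and Tab2 and leaves out the IRAK kinases. Rela differed by −0.03 in C57BL/6 and 0.26 in NOD, Relb by 0.02 and 0.07, Rel by 0.18 and 0.24, Ikbkb by 0.05 and 0.10 and Ikbkg by −0.11 and −0.07, and none of these passed. Nfkbia differed by 0.22 in C57BL/6 (adjusted p = 0.542) and by 0.26 in NOD (adjusted p = 0.228). Its arrays with LPS, 13.85, 13.73 and 13.84 in C57BL/6 and 14.04, 14.00, 14.05 and 14.03 in NOD, lay above those with PBS in both strains.

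In C57BL/6 the calls of Zc3h12a, Nfkbiz and Irak3 held with each of the 7 arrays left out in turn, while those of Malt1 and Tnip1 were lost without 5 of the 7, with an adjusted p up to 0.153 and 0.149, both without C57BL/6 LPS replicate 2. In NOD Zc3h12a, Nfkbiz, Irak3, Ikbke, Malt1 and Tnip1 held, and 6 of 11 calls remained without NOD PBS replicate 4 and without NOD LPS replicate 2 or 3.

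**Figure D4:**
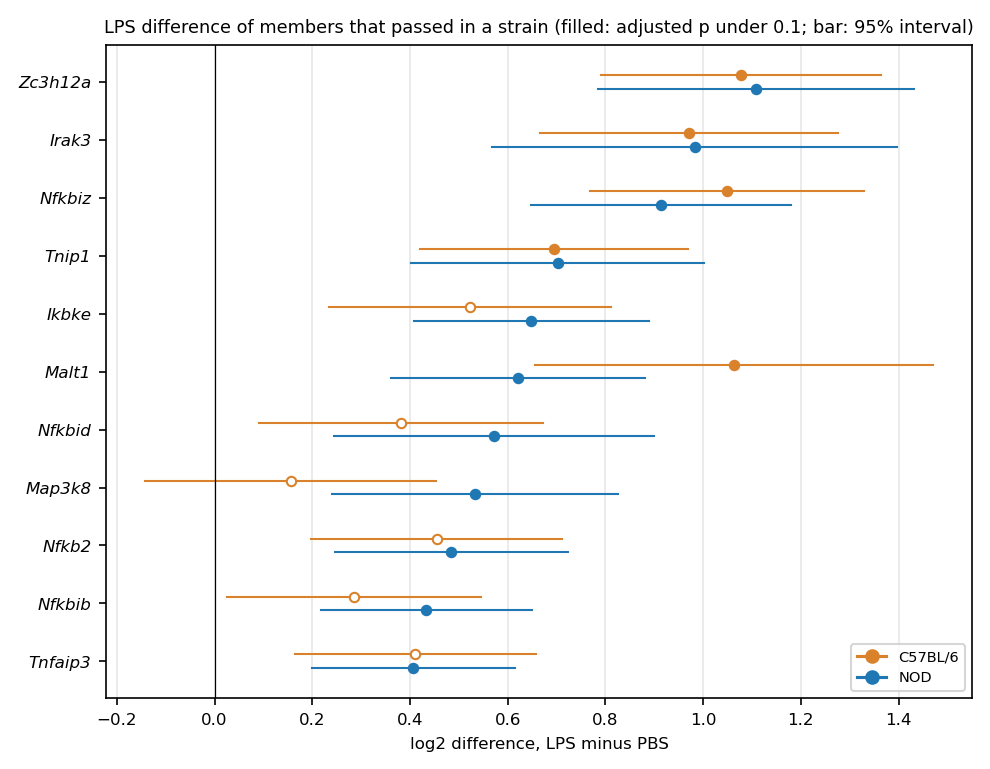
Log2 difference between LPS and PBS culture (horizontal axis) of the 11 members that passed in NOD, 5 of which also passed in C57BL/6. Points are differences, bars 95% intervals, and filled points have an adjusted p under 0.1. The intervals of the strains overlap for every member shown.

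Members with and without the promoter motif can be set side by side as a description. In culture the 13 members with the motif had a median difference of 1.44 in C57BL/6 and 1.81 in NOD, and the 23 with a window but no motif had 1.09 and 1.23. By the test, with the motif 9 of 13 were higher and 1 lower in C57BL/6 and 10 of 13 were higher in NOD, and without it 18 of 23 were higher and 4 lower in C57BL/6 and 17 of 23 were higher and 2 lower in NOD. With LPS the medians were 0.18 and 0.12 in C57BL/6 and 0.21 and 0.11 in NOD. Of the members with the largest LPS differences, Tnip1 held the motif, Zc3h12a and Irak3 had windows without it, and Nfkbiz and Malt1 had no window.

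Genes around the module in the same pathway were read from 3 lists. Of 32 textbook target genes, all measured, 27 were higher and 2 lower in PBS culture in C57BL/6 and 29 higher and 1 lower in NOD, with medians of 2.05 and 2.36. Of all genes 44.6% were higher and 32.3% lower in C57BL/6 and 41.6% and 30% in NOD, with medians of 0.17 and 0.16. In C57BL/6 12 targets, and in NOD 12 targets counted apart, were higher with LPS than with PBS, and none was lower in either. Of all genes 0.945% were higher and 0.868% lower with LPS in C57BL/6, and 1.93% and 2.46% in NOD. At steady state 7 targets were lower and 2 higher in NOD, against 8.35% and 6.87% of all genes. With PBS 12 targets were higher and 1 lower in NOD, against 5.43% and 5.28% of genes. With LPS 10 targets were higher and 1 lower, against 5.21% and 5.43% of genes. The interaction of strain and culture passed in 15 targets, all in the direction of a larger difference in NOD. Of all genes 4.91% had a larger and 2.89% a smaller difference in NOD by this test. The targets were led by the cytokine gene Il6 (1.99), the chemokine gene Cxcl1 (1.88) and the cytokine gene Il1a (1.86).

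Among 13 measured receptors and proximal adaptors (of 15 listed), 5 were higher in culture in C57BL/6 and 3 lower, and in NOD 8 were higher and 2 lower. Cd14, the receptor that passes LPS to TLR4, differed by −0.84 in C57BL/6 and 0.74 in NOD (interaction 1.57), and was higher in NOD by 1.66 with PBS and 1.03 with LPS. Tlr4 itself was lower with LPS in both strains (log2 −0.77 and −0.74). At steady state 1 of the 13 was higher and 2 were lower in NOD, against 6.87% and 8.35% of all genes. With PBS 5 were higher and 1 lower, against 5.43% and 5.28%, and with LPS 2 and 1, against 5.21% and 5.43%. The interaction of strain and culture passed in 5, all larger in NOD, against 4.91% of genes larger and 2.89% smaller. Of 22 measured other signalling proteins (of 24 listed), 12 were higher and 7 lower in culture in C57BL/6 and 10 and 6 in NOD. Since 44.6% of all genes were higher and 32.3% lower in C57BL/6, and 41.6% and 30% in NOD, nothing is read from the culture counts of these 2 lists. Of these, 1 differed between the strains at steady state, 2 with PBS and 1 with LPS.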

How the data were processed

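The authors processed the array files with RMA in BRB-ArrayTools (version not given in the sources used here), and the deposited values are log2 expression per probe set of an Affymetrix whole-genome mouse array for 22 arrays. The table holds 45101 probe sets, and after removal of 64 controls (AFFX) no intensity filter was set for the 45037 tested, of which 34945 name 1 gene. limma 3.58.1 in R 4.3.3 was fitted for each comparison to its own groups alone, with moderated spread and Benjamini-Hochberg adjustment over all probe sets, at the false discovery level of 0.1 named in the methods. The p-values measure the spread between arrays of a group, each from a pool of mice. The number of arrays per group limits the precision, and RMA sets all arrays to 1 distribution.

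The members, lists and comparisons were chosen with earlier results of these data known. All members may be named, and array values are given for up to 6 members per comparison with the largest difference and for those on which a strain comparison turns. Results were recomputed with each array left out, the replicate number as a block, the mean over the probe sets of a gene, an intensity trend with robust spread, median centring, all arrays in 1 model, the brighter probe sets only (dimmer 50% removed) and a stricter threshold of 0.05. The code was tested on simulated data.

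Pairing was checked by the correlation of residuals of arrays with the same replicate number. It was 0.109 to 0.433 between strains at steady state, 0.137 to 0.32 with PBS and 0.114 to 0.345 with LPS. For LPS and PBS it was 0.259 to 0.423 in C57BL/6 and 0.241 to 0.487 in NOD. The numbers were treated as pairs there, but only in the replicate block fits and in differences within a number. The calls, SEs and adjusted p values come from fits to group alone, without the block, unless the block is named. For culture against steady state the numbers were not treated as pairs (−0.0328 to 0.177 in C57BL/6, 0.0996 to 0.277 in NOD).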

Additional observations from a re-analysis of the deposited data

Results flagged for a closer look

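In 13 of 168 checks of 1 member in 1 group of 4 arrays (7.74%), 1 array stood apart from the other 3, where chance gives about 1 in 20. At C57BL/6 steady state these were Nfkb2 at 10.01 and Zfp36 at 13.58 on replicate 1, and Nfkbia at 13.31, Peli1 at 10.81 and Zc3h12a at 8.30 on replicate 6. The other Nfkbia arrays lay between 12.78 and 12.86. In C57BL/6 PBS culture they were Map3k8 at 8.82 and Tnip1 at 12.31 on replicate 2 and Irak1 at 10.52 on replicate 3. In NOD PBS culture they were Nfkbia at 13.66 on replicate 4, and Bcl3 at 11.53 and Tbk1 at 12.97 on replicate 1. In NOD LPS culture replicate 3 had Irak2 at 11.63 and Birc2 at 10.59, where the other 3 arrays lay between 11.21 and 11.27 for Irak2 and between 11.01 and 11.07 for Birc2.

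In 7 members the difference between PBS culture and steady state was not equal in the strains by the interaction test. The interaction was 1.40 for Nfkbiz, 0.95 for Tnfaip3, 0.92 for Tnfaip2, 0.86 for Malt1, 0.80 for Zc3h12a, 0.77 for Irak2 and 0.48 for Traf1. Each was positive, so the difference with its sign was larger in NOD.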

How the results depend on the processing

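At an adjusted p under 0.05 the members called fell from 10 to 4 at steady state and from 11 to 7 between the strains with LPS. For LPS in C57BL/6 the count went from 5 to 8 without the dimmer 50% of probe sets and to 8 with an intensity trend and robust spread. With the replicate block within a strain the strain by culture interaction called 2 members in place of 7, Nfkbiz and Malt1. That block pairs steady state with PBS arrays, which were not treated as pairs. With a block shared by the strains within each condition, chosen after seeing the data, it called 11, and the interaction of strain and LPS called 0 with either block. The cause of these shifts was not tested. With the mean over the probe sets of a gene, Ikbkb in PBS culture in C57BL/6 changed sign (log2 0.0096, adjusted p = 0.934), since its probe sets disagree. With each array left out in turn, the count ranged from 3 to 9 at steady state, from 4 to 8 between the strains with PBS and from 4 to 8 with LPS, from 3 to 6 for LPS in C57BL/6, from 6 to 10 for LPS in NOD, and from 4 to 8 for the strain by culture interaction. It was 36 to 37 for culture in C57BL/6, 32 to 34 in NOD and 0 for strain by LPS. Apart from the counts named here, the counts of members called stayed within 1.5 times under the alternatives tried. With 3 or 4 arrays a group, the median 95% half-width of a member's strain difference was 0.26 at steady state.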
